A study of Homo sapiens with 30 samples.

Results

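ARRDC1, ARRDC2, ARRDC3, ARRDC4 and TXNIP encode human alpha-arrestins, and their RNA was followed in 5 lines established from T-ALL (acute lymphoblastic leukaemia of the T lineage), a cancer of immature T cells. The 5 genes were taken by symbol from the 60554 gene identifiers in the count tables. ARRDC3 was chosen by its read counts with decitabine and DMSO, which were higher with decitabine in TALL-1 only, so its values are a description and carry no test. The other members entered by name. The lines were Loucy, MOLT-16, PEER, PER-117 and TALL-1, each given either 1 µM decitabine or the vehicle dimethyl sulfoxide (DMSO) for 48 h. Decitabine is a cytidine analogue that is built into DNA and depletes DNA methyltransferases. Each of the 10 groups had 3 libraries, 30 in all, which sequenced the 3′ ends of polyadenylated RNA. No label gives a genotype or says that the 3 libraries of a group came from separate cultures, so the p-values cover only the spread among these libraries, which may be technical. A line is a single source of cells, and its response need not hold for other T-ALL.

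Alpha-arrestins share the arrestin fold with the beta-arrestins that bind activated receptors. Most carry short proline and tyrosine motifs that recruit ubiquitin ligases of the NEDD4 family, and so they steer membrane proteins towards endocytosis and degradation. TXNIP also binds thioredoxin and promotes removal of glucose transporters from the cell surface, and with ARRDC4 it is a known target of MondoA, a transcription factor that senses glucose metabolites. TXNIP is also known to be induced by glucocorticoids in lymphoid cells.

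Levels are counts per 1 M reads (CPM) on the gene's strand. Libraries held 2.20 to 15.4 M such reads, and their number limits the precision for low genes: over the 30 libraries TXNIP had 33552 reads, ARRDC3 15768, ARRDC1 3441, ARRDC2 2362 and ARRDC4 992, with as few as 2 ARRDC4 reads in a library. All 5 genes passed the filter on low counts. The T-cell identity of the lines was checked with 8 markers: between 6 and 8 reached 1 CPM in each group, with CD5 and CD2 under 1 CPM in PER-117 and CD2 in Loucy with DMSO. Their summed level ran from 343 to 2284 CPM. Markers of other cells summed to 0.434 to 58.9 CPM (B cell, 3 genes), 0.156 to 25.9 CPM (myeloid, 4 genes), 0 to 9.32 CPM (epithelial, 3 genes) and 0 to 1.57 CPM (erythroid, 3 genes). With decitabine the myeloid sum went from 5.92 to 25.9 CPM in Loucy and from 0.232 to 6.49 CPM in PEER, and the epithelial sum from 2.33 to 9.32 CPM in PEER and from 1.38 to 5.30 CPM in MOLT-16. The B-cell sum went from 6.76 to 16.7 CPM in MOLT-16. The T-cell sum was lower with decitabine in all 5 lines, from 2284 to 1615 CPM in TALL-1, 568 to 343 in PER-117, 2243 to 1756 in MOLT-16, 1512 to 1327 in PEER and 1022 to 884 in Loucy. Their part in the results was not tested. In these bulk samples, fewer cells of a type and less RNA per cell cannot be told apart.

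PEER DMSO replicate 2, TALL-1 DMSO replicate 3 and MOLT-16 DMSO replicate 3 hold transcripts of other lines, and where leaving them out ends a call of a named gene, or makes one for the 5 genes, the value without them is given. For each other line, the level of each gene restricted to it was taken as a percentage of the level in that line of origin. The median over these genes was then summed over the other lines, at 2 limits. With genes of at least 20 CPM in their own line and under 0.5 CPM in the decitabine libraries of the others (0 to 5 genes a line), the sums were 1.76% to 16.6% in these 3 libraries and 0% to 0.972% in the other 12 DMSO libraries. Because so few genes met that rule, the limits were then loosened to 10 and 1 CPM (3 to 27 genes a line), a choice made after the first result was seen. The sums were then 15.3% to 27.7% and 0% to 2.26%. The PEER library differs most between the settings: its low value of 1.76% rests on 1 gene restricted to TALL-1. Decitabine libraries were used to choose these genes and were not assessed for mixing.

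The promoters are shown because decitabine acts on DNA methylation and because TXNIP and ARRDC4 are known glucose-responsive genes. Each run is the 200 bases from 250 to 51 bases before a RefSeq start (GRCh38.p14), and all 5 members matched, with 8 starts in all. Capitals mark motifs on either strand: a loose carbohydrate response element (a CACGNG box, 5 bases and another CACGNG box), CACGTG (an E-box), CCAAT and GTAAACA (a forkhead motif). The motifs and the window were chosen after the members' promoter sequences had been seen. The promoter of TXNIP at its first start (chr1:145996630-145996829, minus strand), of ARRDC4 (chr15:97960453-97960652, plus strand), of ARRDC3 at its first start (chr5:91383368-91383567, minus strand) and of ARRDC2 at its first start (chr19:18000874-18001073, plus strand) read as follows.
TXNIP: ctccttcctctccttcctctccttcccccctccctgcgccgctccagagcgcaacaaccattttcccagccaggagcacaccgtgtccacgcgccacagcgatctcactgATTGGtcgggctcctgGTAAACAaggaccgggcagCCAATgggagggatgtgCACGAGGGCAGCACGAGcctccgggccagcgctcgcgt
ARRDC4: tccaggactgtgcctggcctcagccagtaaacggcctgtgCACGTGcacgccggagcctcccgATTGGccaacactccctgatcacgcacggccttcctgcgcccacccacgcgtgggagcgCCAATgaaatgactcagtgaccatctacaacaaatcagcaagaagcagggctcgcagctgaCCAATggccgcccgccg
ARRDC3: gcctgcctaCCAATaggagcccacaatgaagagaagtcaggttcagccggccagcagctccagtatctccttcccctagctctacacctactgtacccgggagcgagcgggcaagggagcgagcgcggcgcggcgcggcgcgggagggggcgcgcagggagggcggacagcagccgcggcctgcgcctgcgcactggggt
ARRDC2: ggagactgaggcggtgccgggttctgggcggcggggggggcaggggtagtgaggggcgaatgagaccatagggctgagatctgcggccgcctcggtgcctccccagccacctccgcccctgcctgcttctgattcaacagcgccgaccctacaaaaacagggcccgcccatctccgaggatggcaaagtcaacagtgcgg

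The loose carbohydrate response element occurred in the first TXNIP promoter, as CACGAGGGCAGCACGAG from -88 to -72 relative to the start, and in 13 of all 34942 promoter windows of that length (0.0372%). The TXNIP window also held the forkhead motif at -124 to -118, found in 2.34% of windows, and 2 CCAAT motifs. ARRDC4 held an E-box at -210 to -205 (4.51% of windows) and 3 CCAAT motifs, a motif found in 27.4% of windows. ARRDC1 and the first ARRDC3 and second ARRDC2 starts held 1 CCAAT each. The windows of the first TXNIP, ARRDC4, first ARRDC3 and first ARRDC2 starts held 15, 15, 20 and 14 CpG dinucleotides, and that of ARRDC1 held 21, against a median of 8 over all windows. The second ARRDC3 start held 38, and the second TXNIP start 2. Methylation was not measured in these samples, and a match of letters is not a site of binding.

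Over all 15081 genes tested, 3.54% were called higher with decitabine in PEER, 6.74% in TALL-1, 2.19% in MOLT-16, 10.6% in Loucy and 8.67% in PER-117 (adjusted p under 0.05), and 0.961%, 6.12%, 1.01%, 4.13% and 3.16% were called lower. The 3 decitabine libraries lay above the 3 DMSO libraries in 12.5%, 15.5%, 9.18%, 23.4% and 21.6% of genes, and below them in 11.2%, 14.1%, 7.33%, 15.7% and 14.7%, in the same order of lines. Counts and separations of the 5 genes are to be read against these shares.

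TXNIP, the thioredoxin-binding member, was called higher with decitabine in TALL-1, PER-117 and MOLT-16. In TALL-1 (GRCh38 chromosome 1, 145992435 to 145996600, minus strand, ENSG00000265972) the DMSO libraries had 106, 112 and 75.5 CPM and the decitabine libraries 250, 380 and 381 CPM. Every decitabine library was above every DMSO library, with a log2 change of 1.79 (SE 0.31, adjusted p = 0.000246, quasi-likelihood test in edgeR, adjusted over all genes by Benjamini-Hochberg). In PER-117 the values went from 70.5, 80.8 and 95.8 to 213, 188 and 215 CPM, again with no overlap (log2 1.32, SE 0.31, adjusted p = 0.0037). These calls held under all 13 alternatives, at 1.63 to 1.96 in TALL-1 and 1.22 to 1.44 in PER-117.

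In MOLT-16 TXNIP went from 189, 80.7 and 161 CPM to 311, 500 and 231 CPM, with wide spread inside both treatments but no overlap between them. The log2 change was 1.27 (SE 0.31, adjusted p = 0.0191), and the call was lost without decitabine replicate 2 (0.92, adjusted p = 0.127), without DMSO replicate 2 (0.96, adjusted p = 0.112) and in a fit of the MOLT-16 libraries alone (1.28, adjusted p = 0.24). In PEER the DMSO libraries had 43.8, 105 and 38.6 CPM and the decitabine libraries 86.8, 116 and 132 CPM. The DMSO library at 105 CPM is replicate 2, one of those holding transcripts of other lines, and it overlaps the decitabine range. With all libraries the change was not called (log2 0.83, SE 0.31, adjusted p = 0.136), but with the 3 mixed libraries left out it was 1.44 (adjusted p = 0.00104) and without that library alone 1.42 (adjusted p = 0.00604). It was also called with no count filter (adjusted p = 0.000176), at a nearly unchanged log2 change of 0.84. In that setting the adjusted p of TXNIP was lower in the other lines too, at 4.11e-21 in TALL-1 and 1.75e-10 in MOLT-16.

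In Loucy TXNIP had 110, 116 and 73.2 CPM with DMSO and 128, 122 and 132 CPM with decitabine. The 3 decitabine libraries lay above the 3 DMSO libraries, as did those of 23.4% of all genes in this line, and the change was not called (log2 0.35, SE 0.30, adjusted p = 0.50). The responses of TXNIP did not differ between lines at the threshold with all libraries (F = 3.22, adjusted p = 0.115), and did with the 3 mixed libraries left out (F = 4.65, adjusted p = 0.0222), without PEER DMSO replicate 2 (F = 4.49, adjusted p = 0.0462) and with no count filter (F = 10.2, adjusted p = 1.55e-06). With the lines themselves as replicates TXNIP was higher in 5 of 5 lines by 1.07 (SE 0.19, adjusted p = 0.0698), or by 1.17 (adjusted p = 0.0393) without the mixed libraries. That fit called 0.0578% of 13830 genes.

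**Figure D1:**
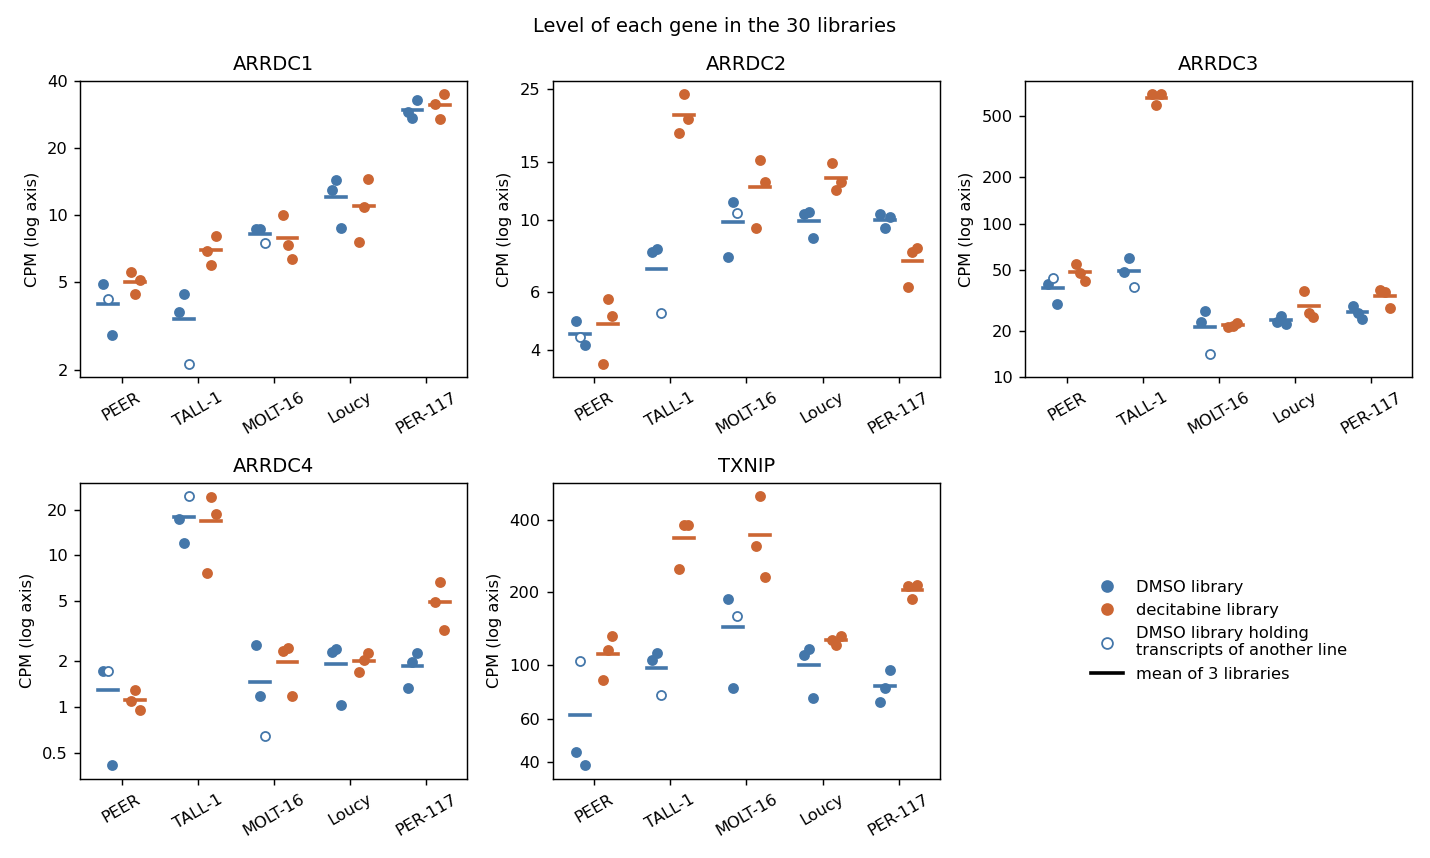
Level of each gene in CPM on a log axis, by line, with a point for each of the 30 libraries, a bar for the mean of 3, and open points for the 3 DMSO libraries holding transcripts of another line. The ARRDC3 points of TALL-1 with decitabine (590 to 698 CPM) stand far above the rest, TXNIP with decitabine lies above DMSO in 4 lines and overlaps it in PEER, and ARRDC4 is highest in TALL-1 in both treatments.

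ARRDC3 is an adaptor known to act on the beta2-adrenergic receptor and integrin beta 4. It lies on chromosome 5, 91368724 to 91383359 (minus strand, ENSG00000113369). In TALL-1 its DMSO libraries had 48.3, 60 and 38.5 CPM (225, 244 and 215 reads) and its decitabine libraries 695, 590 and 698 CPM (3023, 3944 and 1825 reads). The lowest decitabine library was far above the highest DMSO library, and the means were 48.9 ± 10.8 and 661 ± 61.3 CPM (SD, n = 3), a ratio of 13.5. The fitted log2 change was 3.76, between 3.61 and 3.93 over all alternatives. In this contrast 6.74% of all genes were called higher, but ARRDC3 was chosen for this value and nothing is read from its place among them.

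In the other lines the decitabine and DMSO libraries of ARRDC3 overlapped. PEER had 40.3, 44.1 and 30 CPM with DMSO and 54.8, 47.4 and 41.9 CPM with decitabine (log2 0.34). PER-117 had 29.2, 26 and 23.8 against 36.9, 35.8 and 28.3 CPM (0.36), and Loucy 23, 24.9 and 22.3 against 36.1, 26 and 24.6 CPM (0.31). MOLT-16 had 22.7, 26.8 and 14.1 against 21.2, 21.5 and 22.5 CPM, with a log2 change of 0.05, or -0.22 without the 3 mixed libraries. In the DMSO libraries the levels were ordered MOLT-16, Loucy, PER-117, PEER and TALL-1, at 21.2 ± 6.50, 23.4 ± 1.36, 26.3 ± 2.68, 38.1 ± 7.31 and 48.9 ± 10.8 CPM. MOLT-16, Loucy and PER-117 overlapped each neighbour, as did PEER and TALL-1, while PER-117 and PEER did not. PEER and TALL-1 overlapped only through the mixed TALL-1 DMSO replicate 3 at 38.5 CPM. The other TALL-1 DMSO libraries, at 48.3 and 60 CPM, lay above every PEER DMSO library.

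ARRDC2, a less studied member (chromosome 19, 18001132 to 18014102, plus strand, ENSG00000105643), also rose in TALL-1. The DMSO libraries had 7.94, 8.12 and 5.19 CPM and the decitabine libraries 18.4, 24.1 and 20.3 CPM, with no overlap. The means were 7.08 ± 1.64 and 20.9 ± 2.91 CPM (SD, n = 3; log2 1.58, SE 0.22, adjusted p = 1.33e-05), and the call held under all 13 alternatives at 1.39 to 1.69. In Loucy the 3 decitabine libraries, at 14.9, 12.3 and 13 CPM, lay above the DMSO libraries at 10.4, 10.6 and 8.81 CPM, and in PER-117 those at 6.21, 7.96 and 8.21 CPM lay below DMSO at 10.4, 9.39 and 10.1 CPM. Neither was called (log2 0.43, SE 0.19, adjusted p = 0.129, and -0.42, SE 0.20, adjusted p = 0.194), and such separation was seen upwards in 23.4% of genes in Loucy and downwards in 14.7% in PER-117. MOLT-16 and PEER overlapped (0.31 and 0.03). The response of ARRDC2 differed between the lines (F = 12.0, adjusted p = 0.000544), as did that of 13.6% of all genes.

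ARRDC4, the paralogue of TXNIP that is also known to limit glucose uptake (chromosome 15, 97960698 to 97973838, plus strand, ENSG00000140450), was set apart by its level in TALL-1. There it had 17.4, 12.1 and 24.5 CPM with DMSO and 7.59, 24.2 and 18.7 CPM with decitabine, with overlap and no call (log2 -0.09, or 0.21 without the mixed libraries). The other lines had means of 1.29 to 1.91 CPM with DMSO and did not differ beyond their spread from their neighbours in that order. DMSO levels differed between lines (F = 36.2, adjusted p = 5.13e-10), as for 91.6% of all genes. ARRDC4 was called higher in PER-117, from 1.34, 1.98 and 2.27 CPM (12, 19 and 21 reads) to 4.96, 6.63 and 3.23 CPM (67, 70 and 35 reads). The log2 change was 1.39 (SE 0.42, adjusted p = 0.0263), beside 8.67% of genes called higher in this line. That call was lost without decitabine replicate 1 (adjusted p = 0.0662), decitabine replicate 2 (1.13, adjusted p = 0.131), DMSO replicate 1 (1.21, adjusted p = 0.126) and DMSO replicate 2 (adjusted p = 0.0766), and the response was not called different between lines (F = 2.30, adjusted p = 0.221).

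ARRDC1 drives budding of small vesicles from the plasma membrane with the ESCRT protein TSG101 (chromosome 9, 137605654 to 137615360, plus strand, ENSG00000197070). Its level differed between lines: DMSO means were 3.41 ± 1.16 CPM in TALL-1, 3.99 ± 1.01 in PEER, 8.26 ± 0.69 in MOLT-16, 12.0 ± 2.95 in Loucy and 29.7 ± 2.81 in PER-117 (F = 54.8, adjusted p = 6.26e-12). This test between DMSO levels called 91.6% of all genes. TALL-1 and PEER overlapped, and no other neighbours did, though MOLT-16 reached 8.68 CPM and the lowest Loucy library had 8.74 CPM. With decitabine the level in TALL-1 went from 3.65, 4.43 and 2.15 to 6.9, 5.99 and 8.03 CPM, without overlap (17, 18 and 12 reads to 30, 40 and 21; log2 1.03, SE 0.31, adjusted p = 0.0285). That call was lost with the mixed libraries left out (0.75, adjusted p = 0.165), in the unstranded counts (0.73, adjusted p = 0.329), in a fit of the TALL-1 libraries alone (1.04, adjusted p = 0.0611), and without decitabine replicate 1 or 3 or DMSO replicate 1 or 3 (adjusted p = 0.0743, 0.0922, 0.0559 and 0.174). In the other lines the log2 change lay between -0.14 and 0.34 with overlap. ARRDC1 overlaps the antisense gene ARRDC1-AS1 by 29 bases, and 27.2% of reads at ARRDC1 lay on the opposite strand. A further annotated gene, a processed transcript, overlaps ARRDC1 on its own strand over far more bases. The effect of that same-strand overlap on the ARRDC1 counts was not tested.

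**Figure D2:**
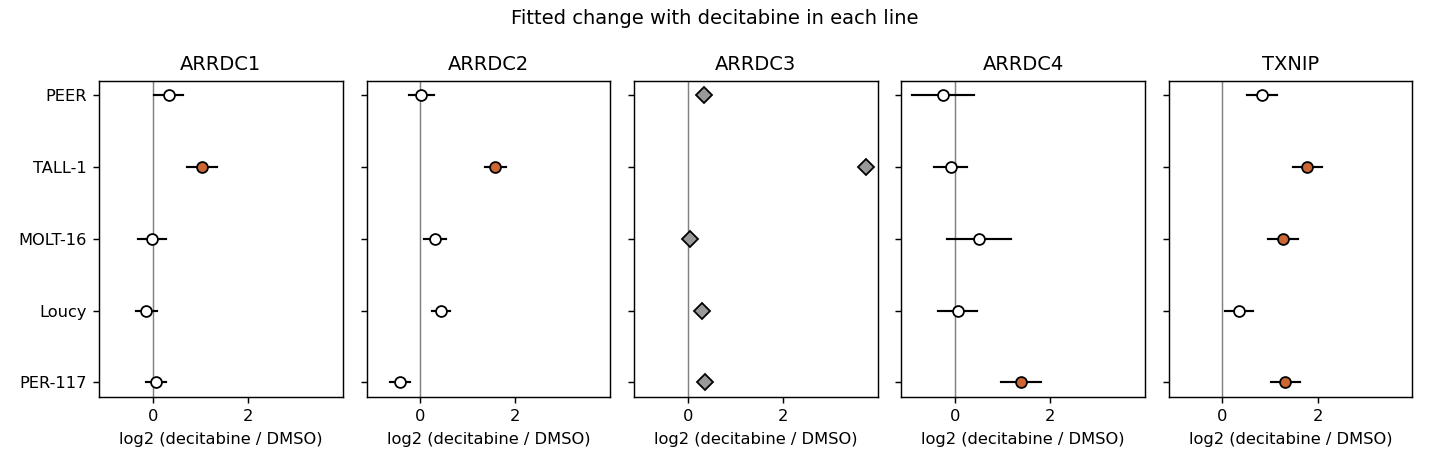
Fitted log2 change with decitabine for each gene and line. Circles with bars (1 SE) are tested genes, filled where the adjusted p is under 0.05, and grey diamonds are ARRDC3, which was not tested. Filled points stand in TALL-1 for ARRDC1, ARRDC2 and TXNIP, in MOLT-16 for TXNIP, and in PER-117 for ARRDC4 and TXNIP.

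Over the 4 tested members, 3 were called higher in TALL-1, 2 in PER-117, 1 in MOLT-16 and 0 in PEER and Loucy, and none was called lower. The share of all genes called higher was 6.74%, 8.67%, 2.19%, 3.54% and 10.6% in the same order. The members did not share one order of levels across lines. TXNIP DMSO levels ran from 62.3 ± 36.7 CPM in PEER to 143 ± 56.0 in MOLT-16, with each neighbour overlapping. PEER overlaps PER-117 through the mixed DMSO replicate 2 at 105 CPM, and its other libraries, at 43.8 and 38.6 CPM, lie below every PER-117 DMSO library. TALL-1 overlaps PER-117 only through the mixed TALL-1 DMSO replicate 3 at 75.5 CPM. The other TALL-1 DMSO libraries, at 106 and 112 CPM, lie above every PER-117 DMSO library. The test between lines (F = 4.07, adjusted p = 0.0117) gave F = 8.76 (adjusted p = 9.97e-05) without the mixed libraries and was lost without MOLT-16 DMSO replicate 1 (F = 2.42, adjusted p = 0.0795). ARRDC2 was lowest in PEER at 4.47 ± 0.38 CPM, apart from TALL-1, and MOLT-16, Loucy and PER-117 stood at 9.81, 9.92 and 9.98 CPM (F = 8.86, adjusted p = 0.00014). The test of DMSO levels between lines called 91.6% of all genes.

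**Figure D3:**
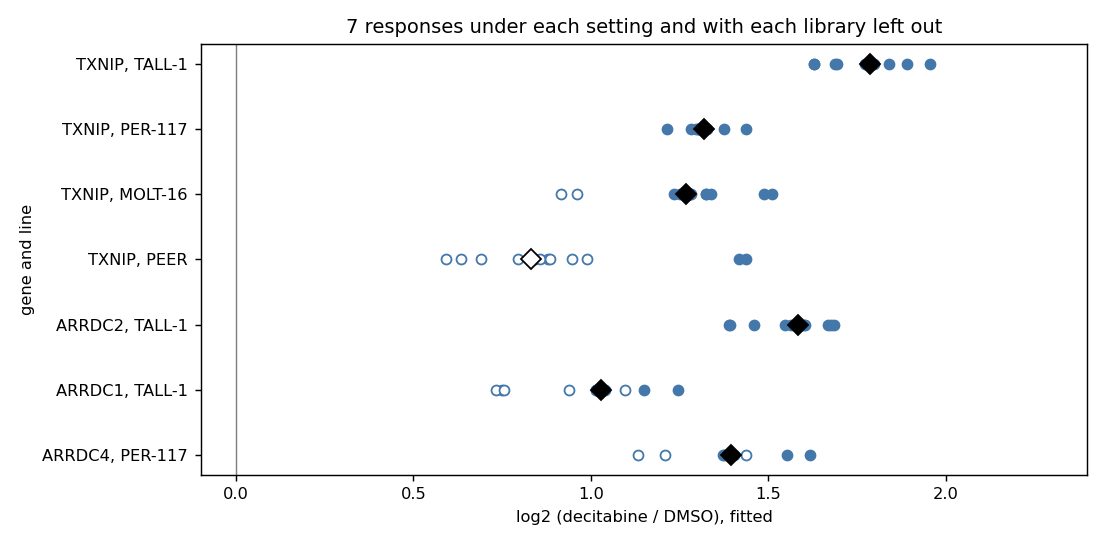
Fitted log2 change of 7 gene and line pairs under each processing setting and with each library left out (circles), with the reported value as a diamond, filled where called at an adjusted p under 0.05. TXNIP in TALL-1 and PER-117 and ARRDC2 in TALL-1 are filled throughout, and the others change side.

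Across the 30 libraries, which share 5 lines, the Pearson correlation of log2 CPM between ARRDC3 and ARRDC4 was 0.626 and between ARRDC2 and TXNIP 0.620, and other member pairs ran from -0.232 to 0.403. Among 12370 protein-coding genes, those with a pattern most like that of ARRDC3 included PLVAP (r = 0.912) and EPC1 (0.911). For TXNIP they were PDCD4 (0.803), CD164 (0.788) and PQLC3 (0.786), for ARRDC2 POR (0.837), CDKN2D (0.829) and ATF7IP (0.806), for ARRDC1 TRIB2 (0.954), SNAPC4 (0.938) and COX20 (0.920), and for ARRDC4 ZFP37 (0.883), KLHL28 (0.882) and UFM1 (0.881). These values describe the libraries, which share lines and treatments, and carry no test.

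With all libraries, called genes of the machinery that alpha-arrestins work with were at most 1 in each direction for each list and line. Over all genes 2.19% to 10.6% were called higher and 0.961% to 6.12% lower. With the mixed libraries left out, 4 NEDD4-family genes fell in MOLT-16 and 2 in Loucy, and 2 ESCRT and budding partners fell in MOLT-16. Of other arrestin-fold proteins 2 then rose in MOLT-16 and 2 fell in Loucy. The other counts of these lists were then at most 1. With 1 MOLT-16 library left out in turn, 0 to 3 NEDD4-family genes fell there. The values that follow are with all libraries unless stated. Of 10 measured NEDD4-family ligases and adaptors, 1 rose (SMURF1 in TALL-1, log2 0.71, SE 0.23, not called with the mixed libraries left out, 0.63, adjusted p = 0.114) and 1 fell (WWP1 in Loucy, -0.42, SE 0.12) over the 5 lines. Of 11 ESCRT and budding partners, PDCD6IP, which acts in vesicle release, rose in MOLT-16 (0.67, SE 0.18) and STAM2 in PER-117 (0.61, SE 0.19), and none fell. Of 6 other arrestin-fold proteins, SAG, the rod photoreceptor arrestin, rose in Loucy from 2.31 to 16.6 CPM (2.84, SE 0.36) and VPS26B, a retromer subunit, fell there (-0.47, SE 0.14).

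Of 8 measured cargo genes 1, 1, 2, 1 and 2 rose in the order PEER, TALL-1, MOLT-16, Loucy, then PER-117, and 2 fell, both in TALL-1. Over all genes 3.54%, 6.74%, 2.19%, 10.6% and 8.67% were called higher in that order, and 0.961%, 6.12%, 1.01%, 4.13% and 3.16% lower. With 1 library of the line left out in turn 0 to 1, 1, 2 to 3, 0 and 0 to 1 cargo genes rose. The counts for Loucy and PER-117 leave out SLC2A4, which had no value in those fits. SLC2A4, named after its values were seen, was called higher in Loucy and PER-117 with all libraries. It was also called in the 5 alternatives that gave it a value (2.83 in Loucy and 6.35 in PER-117 with the mixed libraries left out). ITGB4, the integrin known to be bound by ARRDC3, rose in MOLT-16 from 2.10 to 8.24 CPM (log2 1.92, SE 0.39) and in PEER from 2.43 to 5.62 CPM (1.22, SE 0.34). ADRB1, the beta1-adrenergic receptor, rose in TALL-1 from 1.14 to 8.71 CPM (2.94, SE 0.47), and NOTCH1, the T-ALL receptor oncogene, fell there from 141 to 77.7 CPM (-0.85, SE 0.22) and rose in MOLT-16 (1.28, SE 0.25). With the mixed libraries left out ITGB4 in PEER was not called (1.05, adjusted p = 0.0900). F2R, a thrombin receptor, rose in PER-117 (0.96, SE 0.26) and fell in TALL-1 (-2.98, SE 0.71), a call lost with the mixed libraries left out (-2.08, adjusted p = 0.0775). In TALL-1 F2R did not meet the naming rule of at least 5 CPM in the higher treatment and no overlap. F2R in TALL-1 and NOTCH1 in MOLT-16 were named after their values were seen. SLC2A1, the glucose transporter that TXNIP is known to remove from the membrane, was called in no line (log2 -0.19 to 0.46).

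In the thioredoxin and peroxiredoxin list of 13 genes, 1 rose and 1 fell in TALL-1 (PRDX5 at 0.79, GLRX2 at -0.78, the latter not called with the mixed libraries left out, -0.65, adjusted p = 0.109), GLRX2 fell in Loucy (-0.60), and PRDX2, named after its values were seen, rose in PER-117 (1.70, but 3.19 and not called in unstranded counts, adjusted p = 0.113). Over all genes 6.74% were called higher and 6.12% lower in TALL-1, 4.13% lower in Loucy and 8.67% higher in PER-117. TXN, the thioredoxin TXNIP binds, and its reductase TXNRD1 were called in no line. MLXIP, which encodes MondoA, and its partner MLX were called in no line either. MXD1, a MAX-binding repressor, rose in TALL-1 from 6.13 to 24.4 CPM (1.95, SE 0.30), and MXI1 and MXD4 also rose there (0.92 and 1.06, named after their values were seen). MYC, the growth-promoting factor, fell in PEER (-1.10, SE 0.30, or -0.79 and adjusted p = 0.0787 with the mixed libraries left out) and PER-117 (-0.82, SE 0.27) and rose in MOLT-16 (1.00, SE 0.28). MXI1 rose in Loucy (0.69, SE 0.13) and MXD4 in PER-117 (0.87, SE 0.28), and MYCN fell in Loucy from 88.2 to 47.1 CPM (-0.90, SE 0.21).

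Genes of glucose uptake and glycolysis did not move one way. Of 23 measured, 1, 2, 0, 3 and 3 rose and 1, 5, 5, 2 and 2 fell in the same order, with median log2 changes of -0.20, -0.31, -0.45, 0.18 and -0.08. Over all genes 3.54%, 6.74%, 2.19%, 10.6% and 8.67% were called higher and 0.961%, 6.12%, 1.01%, 4.13% and 3.16% lower. In MOLT-16 14 fell with the mixed libraries left out, and with 1 library of the line left out in turn the falls numbered 1 to 3, 2 to 5, 0 to 12, 2, and 0 to 1 in the same order of lines. SLC2A3, a glucose transporter, rose in TALL-1 from 25.7 to 63.9 CPM (1.31, SE 0.19) and in PEER from 20.8 to 40.8 CPM (0.96, SE 0.19). It was also called higher in Loucy (1.98) and PER-117 (0.73), named after their values were seen, and was not called in MOLT-16 (-0.60). ENO2, an enolase, rose in PER-117 (1.44, SE 0.22) and PFKFB4, a regulator of glycolytic flux, in Loucy (2.05, SE 0.43). GPI fell in MOLT-16 from 1191 to 632 CPM (-0.91, SE 0.23), PGK1 in TALL-1 (-0.64, SE 0.16, or -0.44 and adjusted p = 0.0536 with the mixed libraries left out) and SLC16A1, a lactate transporter, in Loucy (-0.72, SE 0.13). LDHB, a lactate dehydrogenase subunit, fell in PEER (-0.53, SE 0.12) and TPI1, the triose phosphate isomerase, in PER-117 (-0.46, SE 0.14). LDHB was also called lower in TALL-1 and Loucy, named after their values were seen (-0.53 in each with the mixed libraries left out).

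The list of FOXO and glucocorticoid genes, which holds FOXO1, FOXO3, FOXO4, NR3C1 and known targets, had the most rises. Of 19 measured, 3, 8, 2, 9 and 9 rose and 1, 2, 2, 0 and 0 fell in the same order of lines. Median log2 changes were 0.32, 0.55, 0.42, 0.73 and 0.61, beside -0.02, -0.00, -0.01, 0.03 and 0.05 for all genes, of which 3.54%, 6.74%, 2.19%, 10.6% and 8.67% were called higher and 0.961%, 6.12%, 1.01%, 4.13% and 3.16% lower. With the mixed libraries left out 4, 10, 5, 12 and 11 rose, and with each library of the line left out in turn 0 to 2, 5 to 7, 1 to 5, 4 to 5 and 6 to 11 rose.

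PIK3IP1, an inhibitor of PI3 kinase signalling, rose in TALL-1 from 3.22 ± 1.86 to 30.8 ± 7.01 CPM (SD, n = 3; log2 3.20, SE 0.36), in PER-117 from 1.98 to 11.6 CPM (2.54, SE 0.35) and in MOLT-16 from 8.10 to 22.1 CPM (1.49, SE 0.34). It was also called higher in Loucy (1.56, named after its value was seen), and was not called in PEER (0.86). KLF2, a factor of T-cell quiescence, rose in PEER from 6.44 to 28.2 CPM (2.13, SE 0.51), and IL7R, the interleukin 7 receptor, in Loucy from 6.14 to 18.4 CPM (1.58, SE 0.50). KLF2 was also called higher in PER-117 and Loucy, named after their values were seen (4.89 and 1.56 with the mixed libraries left out). The PER-117 call held under all 11 alternatives. The Loucy call of KLF2 was lost without decitabine 1 or 2 or DMSO 1 or 3 (1.23 to 1.60). BCL6, a transcriptional repressor, fell in MOLT-16 (-1.45, SE 0.31), and FKBP5, a chaperone of the glucocorticoid receptor, in TALL-1 (-0.71, SE 0.20). In PER-117 BCL6 was called higher (1.58, named after its value was seen), and that call held under all 11 alternatives at 1.32 to 1.79. Of 89 calls of listed genes over the lines, 39 held under each alternative run for them (at most 11, without DESeq2 and the fits of a single line) and 50 were lost under at least 1.

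Several calls named above were lost when 1 library of the line was left out, given here as treatment and replicate number with the log2 change then found. In TALL-1 these were SMURF1 without decitabine 1, 2 or 3 or DMSO 1, 2 or 3 (0.60 to 0.79), F2R without DMSO 3 (-2.07), NOTCH1 without decitabine 3 or DMSO 2 (-0.71 to -0.70), GLRX2 without decitabine 1 or 3 or DMSO 1 or 3 (-0.83 to -0.62), MXD4 without decitabine 1, 2 or 3 or DMSO 1 or 3 (0.85 to 1.14), PGK1 without DMSO 3 (-0.43) and FKBP5 without decitabine 1 or DMSO 3 (-0.65 to -0.56). In Loucy these were WWP1 without decitabine 1 or 3 or DMSO 3 (-0.40 to -0.33), VPS26B without decitabine 2 or 3 or DMSO 3 (-0.44 to -0.39), GLRX2 without decitabine 1, 2 or 3 or DMSO 3 (-0.59 to -0.35) and IL7R without decitabine 1, 2 or 3 or DMSO 1, 2 or 3 (1.53 to 1.64). In MOLT-16 these were PDCD6IP without decitabine 1 or 2 or DMSO 1 or 2 (0.42 to 0.71), MYC without decitabine 1 or 2 or DMSO 1 or 2 (0.72 to 1.01), GPI without decitabine 1, 2 or 3 or DMSO 1 or 2 (-0.93 to -0.82), PIK3IP1 without decitabine 1 or 2 or DMSO 1 (1.29 to 1.51) and BCL6 without decitabine 3 (-1.29). In PER-117 these were STAM2 without decitabine 1 or 2 or DMSO 1 or 3 (0.54 to 0.58), F2R without DMSO 1 or 2 (0.93), MYC without decitabine 1 or 3 or DMSO 1, 2 or 3 (-0.93 to -0.66), MXD4 without decitabine 1 or 3 or DMSO 1 or 2 (0.67 to 0.93) and TPI1 without decitabine 1, 2 or 3 or DMSO 1 or 2 (-0.48 to -0.41). In PEER these were ITGB4 without decitabine 1, 2 or 3 or DMSO 2 or 3 (1.02 to 1.29), MYC without decitabine 1, 2 or 3 or DMSO 2 (-1.21 to -0.81) and KLF2 without DMSO 1 or 3 (1.95 to 1.97).

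**Figure D4:**
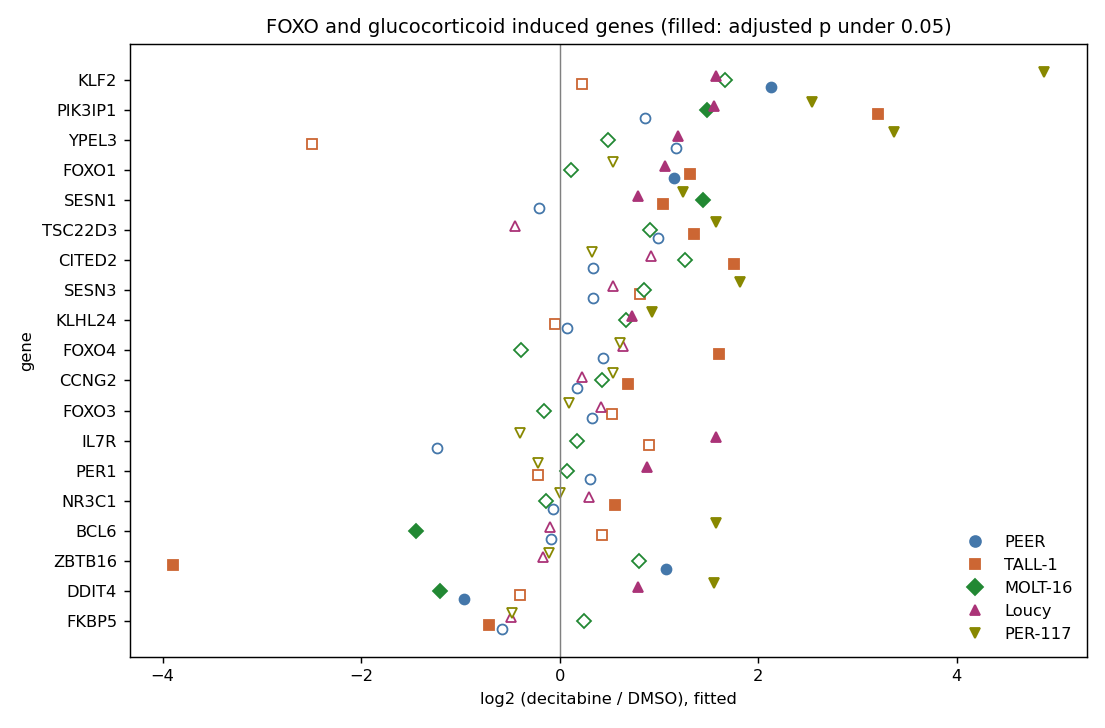
Fitted log2 change with decitabine of the 19 measured FOXO and glucocorticoid genes (rows) in the 5 lines (symbols), filled where the adjusted p is under 0.05. Most filled points lie right of 0, with falls in PEER, TALL-1 and MOLT-16 among the lower rows.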

How the data were processed

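Each library has a deposited table of read counts by gene, which the authors made with STAR 2.4.2a on GRCh38, per the submitters' processing notes, which also name DESeq2. The annotation release used is not named in these sources. Identifiers were matched to GENCODE 29 symbols (56996 of 60554). The gene-strand column was used, which held 12.8 to 15.2 times the reads of the opposite strand. Groups came from the sample titles, which for PEER DMSO exchange replicates 2 and 3 relative to the file names.

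The model, in edgeR 4.0.16 with R 4.3.3, covered all 30 libraries: 1 mean for each of 10 groups, TMM scaling, filterByExpr with a minimum count of 10 (15081 genes left), quasi-likelihood F tests with 20 residual degrees of freedom (common dispersion 0.0280) and Benjamini-Hochberg adjustment over all genes within each comparison. Genes with an adjusted p below 0.05 were called. The SE is approximate: the size of the log2 change over the square root of F. Reads carry no molecular identifiers. Libraries of a group differed by more than sampling noise (30 pairs, lowest chi-square per degree of freedom 2.13). The fit was tested on simulated data.

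The members and the 8 gene lists (110 symbols) were chosen with earlier results of these data known. So were the 3 mixed libraries. From each list and line the text names the called gene with the largest rise and that with the largest fall, with at least 5 CPM in the higher treatment and no overlap between treatments, and says where another was named. A gene named in 1 line may have been called in other lines too. For each member it names the 3 protein-coding genes with the highest Pearson r over the libraries, of which 1 is not reported here. Alternatives were RLE size factors, no count filter, the mixed libraries left out, unstranded counts, DESeq2 1.42.0, a fit of 1 line's libraries, a replicate block, and each library left out. Settings for single listed genes were added after the first results were seen, as was the second limit for line-restricted genes.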

Additional observations from a re-analysis of the deposited data

Results flagged for a closer look

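Of 34 genes looked at, 14 had a decitabine response that differed between the 5 lines (edgeR, 4 degrees of freedom, adjusted over all genes). Apart from the members, these genes were taken up because they were called in at least 1 line, so the count is no result and their adjusted p values are a description. Log2 changes are given in the order PEER, TALL-1, MOLT-16, Loucy, then PER-117. No explanation was tested.

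ARRDC2 had changes of 0.03, 1.58, 0.31, 0.43 and -0.42 (adjusted p = 0.000544). For ITGB4 the log2 changes were 1.22, -0.08, 1.92, 0.28 and -0.20, with adjusted p = 0.0135. The changes of ADRB1 were -2.62, 2.94, -0.33, -0.71 and 0.74 (adjusted p = 0.000308). NOTCH1 had changes of -0.59, -0.85, 1.28, 0.27 and -0.38 (adjusted p = 0.000316). For F2R the log2 changes were 0.32, -2.98, 0.63, 0.26 and 0.96, with adjusted p = 0.00729. The changes of PRDX5 were -0.01, 0.79, 0.08, -0.12 and 0.32 (adjusted p = 0.0147). MYC had changes of -1.10, -0.83, 1.00, -1.22 and -0.82 (adjusted p = 0.0037). For MXD1 the log2 changes were 0.75, 1.95, 0.10, 0.42 and 0.44, with adjusted p = 0.0207. The changes of MXI1 were 0.14, 0.92, 0.16, 0.69 and 0.08 (adjusted p = 0.00423). SLC2A3 had changes of 0.96, 1.31, -0.60, 1.98 and 0.73 (adjusted p = 3.37e-06). For PFKFB4 the log2 changes were -0.96, 0.33, -1.59, 2.05 and 2.30, with adjusted p = 0.0015. The changes of ENO2 were 0.37, -0.05, -0.21, 0.24 and 1.44 (adjusted p = 0.00202). PIK3IP1 had changes of 0.86, 3.20, 1.49, 1.56 and 2.54 (adjusted p = 0.00981). For BCL6 the log2 changes were -0.09, 0.43, -1.45, -0.10 and 1.58, with adjusted p = 0.000829. F2R in TALL-1 was -2.08 and not called (adjusted p = 0.0775) with the mixed libraries left out.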

How the results depend on the processing

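Of 37 results on the 5 genes, 22 counted as unchanged under every alternative. These include the ARRDC3 change in every line, which has no verdict. It counted as unchanged where it moved by less than the spread of its libraries, even with a change of sign. Of 567 alternative values 521 kept direction and, where tested, side of the threshold, 16 lost a call and 7 gained one. Another 20 values of tested members and 3 of ARRDC3 changed sign, none of them a called change, with sizes up to 0.47 afterwards. ARRDC3 in MOLT-16 was -0.22 without the mixed libraries, -0.014 in unstranded counts and -0.22 without DMSO replicate 3. The causes were not tested. Precision is limited by reads, most of all for ARRDC4. ARRDC4 in PEER and MOLT-16 could not be fitted with only the line's libraries, since it did not pass the filter there. ARRDC3 values are changes without a test.

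Leaving out the 3 mixed libraries gave ARRDC1 in TALL-1 0.75, ARRDC4 in TALL-1 0.21, TXNIP in PEER 1.44, F = 4.65 for the difference of TXNIP between lines and 1.17 for TXNIP with lines as replicates. No count filter gave TXNIP in PEER 0.84 and F = 10.2. Among the listed genes named in the report it ended the calls of SMURF1 in TALL-1 (adjusted p = 0.159) and of WWP1 and VPS26B in Loucy (0.211 and 0.0862). It also ended those of STAM2 and TPI1 in PER-117 (adjusted p = 0.196 and 0.0557). RLE size factors ended the call of GLRX2 in Loucy (-0.56, adjusted p = 0.0524). Unstranded counts gave ARRDC1 -0.060 in PEER, 0.73 in TALL-1, 0.47 in MOLT-16 and -0.085 in PER-117. Besides PRDX2 in PER-117, they ended the calls of SMURF1 in TALL-1 (adjusted p = 0.104) and MYC in MOLT-16 (adjusted p = 0.0584). GAPDH, called lower in MOLT-16 with all libraries (-0.87 without the mixed libraries), changed sign to 0.74 in unstranded counts and was not called (adjusted p = 0.316). With only the line's libraries ARRDC1 in TALL-1 was 1.04 and TXNIP in MOLT-16 1.28.

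With 1 library left out, ARRDC1 ranged from -0.38 to 0.082 in Loucy, -0.28 to 0.12 in MOLT-16, -0.018 to 0.16 in PER-117 and 0.76 to 1.25 in TALL-1. ARRDC2 in PEER ranged from -0.13 to 0.27. ARRDC4 ranged from -0.25 to 0.25 in Loucy, -0.61 to 0.043 in PEER, 1.13 to 1.62 in PER-117 and -0.51 to 0.26 in TALL-1. TXNIP ranged from 0.92 to 1.51 in MOLT-16 and 0.59 to 1.42 in PEER, its F between lines from 2.48 to 4.49 for the response and 2.42 to 8.95 for DMSO levels.

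Listed genes called higher and lower were 5 and 3 in PEER, 16 and 10 in TALL-1, 6 and 7 in MOLT-16, 16 and 6 in Loucy, and 17 and 3 in PER-117. No count filter gave 9 and 7 in PEER, 16 lower in TALL-1 and 13 higher in MOLT-16. Leaving out the mixed libraries gave 8 higher in PEER, 6 lower in TALL-1, 16 and 24 in MOLT-16, 11 lower in Loucy and 7 lower in PER-117. With 1 library left out the counts were 2 to 4 and 1 to 4 in PEER, 11 to 14 and 3 to 11 in TALL-1, 3 to 14 and 1 to 20 in MOLT-16, 10 to 11 and 3 to 7 in Loucy, and 9 to 17 and 0 to 1 in PER-117. These counts for Loucy and PER-117 leave out SLC2A4, which had no value in those fits.

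Libraries share only a replicate number: 3 of 15 same-numbered pairs had a correlation of deviations above 0.1 (range -0.192 to 0.223), and 12 of 30 libraries correlated best with their own number. With the replicate block ARRDC1 in TALL-1 was 1.02 (adjusted p = 0.0651), and no other call of the 5 genes changed. Among the listed genes named in the report the block ended the calls of SMURF1 in TALL-1 (0.70, adjusted p = 0.0678), PDCD6IP in MOLT-16 (0.69, adjusted p = 0.0515) and MYC in PEER (-1.05, adjusted p = 0.0921), MOLT-16 (1.02, adjusted p = 0.0831) and PER-117 (-0.83, adjusted p = 0.0764).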
